A study of Mus musculus with 7 samples.

Results

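Genes of cholesterol and fatty acid synthesis, with their regulators, were examined in cancer-associated fibroblasts (CAFs) from mouse pancreatic tumors. They were taken as a list of 36 gene symbols, and the 34 that appear in the count table of 12771 genes were used. Idi1 and Fdft1 were not analysed here. The 34 genes are 16 enzymes of sterol synthesis, 8 enzymes of fatty acid synthesis and desaturation, 5 genes of the SREBP machinery, and 5 genes of sterol transport and the LXR receptors.

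The CAFs came from tumors grown in the pancreata of syngeneic C57BL/6 mice from KPC cells, which are murine pancreatic cancer cells. In 1 group the KPC cells carried a lentiviral short hairpin RNA against Brca2 (shBrca2, 4 libraries), and in the other a non-targeting hairpin (shControl, 3 libraries). The comparison asks how Brca2 silencing in the cancer cells changes the transcripts of the fibroblasts around them, and each library came from 1 mouse. The mice were young adult males by the study's methods. They were anesthetized and given buprenorphine around the injection, with no further treatment named, and their tumors were taken a few weeks after injection. The hairpin sat in the injected cells of an infected and puromycin-selected line, so the host fibroblasts of both groups carried no hairpin. The methods name 1 Brca2 hairpin product and 1 control vector. The mice of a group therefore replicate the injection and not the silencing. Other effects of a hairpin or a line cannot be told apart from Brca2 loss. Fibroblasts were sorted as live cells lacking CD45, CD31 and EpCAM and displaying podoplanin, and their poly(A) RNA was sequenced from the 3′ end by a variant of MARS-seq.

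Cells make cholesterol from acetyl-CoA through the mevalonate pathway to squalene, which is oxidized and cyclized to lanosterol and then trimmed to cholesterol. Fatty acids are built from the same acetyl-CoA, lengthened, and desaturated. Genes of both arms are driven by the SREBP transcription factors, which SCAP carries out of the endoplasmic reticulum when sterols are low and INSIG proteins hold back when sterols are high. The LXR receptors respond to oxysterols and switch on sterol export. SREBP activity is set by cleavage of the protein, so the RNA level of a regulator does not measure it.

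Libraries held 1898679 to 5990579 counts, and shBrca2 replicate 3 was the shallowest. All 12 fibroblast markers were in the table, Pdpn among them at 652, 599.6 and 670.3 normalized counts in shControl and 561, 589.9, 549 and 457 in shBrca2, and of the 12 only Dcn and Lum were called, both lower. Normalized counts are counts divided by a size factor of the library. The fibroblast markers summed to 129740 to 147668 normalized counts in shControl and 103815 to 123349 in shBrca2, with 10 of 12 log2 fold changes negative. Markers of other cells also moved with the group. The epithelial markers summed to 472 to 1219 normalized counts in shControl and 1639 to 2186 in shBrca2, with 7 of 11 called higher, although Epcam is outside the table. Macrophage and other immune markers summed to 353 to 447 and 559 to 649, with 3 of 9 called higher and 1 lower. Hypoxia genes summed to 4586 to 6112 and 7524 to 8330, with 7 of 13 called higher and 1 lower. Acinar markers summed to 180 to 308 and 106 to 169, with 1 of 10 called higher and 5 lower. Proliferation markers overlapped, at 780 to 1576 and 1016 to 1706, with 1 of 13 called higher, although 12 of the 13 log2 fold changes were positive. No mesothelial (of 10) or endothelial (of 6) marker was called, and 3 of 10 pericyte and smooth muscle markers were called higher. The groups did not overlap for 2 mesothelial markers, both higher in shBrca2, and 3 endothelial markers, all lower. Over all genes 7.78% and 9.29% were separated in these directions. The endothelial Pecam1, among those apart, had a mean normalized count of 3.87, too low to be called. The part of these markers in the results that follow was not tested. In sorted bulk RNA, a change in the share of cells of a type and a change in RNA per cell cannot be told apart.

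In all, 4 of the 34 genes rose in shBrca2 CAFs, 1 fell, and 29 were not called. Squalene epoxidase (Sqle), lanosterol demethylase (Cyp51), the elongase Elovl6 and stearoyl-CoA desaturase 1 (Scd1) rose, and the oxysterol receptor LXRα (Nr1h3) fell. A gene was called when its DESeq2 adjusted p was under 0.1, its log2 fold change was over 0.5 in size and its mean normalized count was over 5, a mean that 33 of the 34 genes exceeded. The same rule called 3.77% of all 12768 tested genes higher, 5.27% lower and 9.04% in either direction. The log2 fold change was positive for 20 of the 34 genes and negative for 14, with a median of 0.16, against 0.01 over all genes. The 2 groups did not overlap in normalized counts for 6 genes that were higher in shBrca2 and 4 that were lower, where 7.78% and 9.29% of all genes were separated in these directions.

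**Figure D1:**
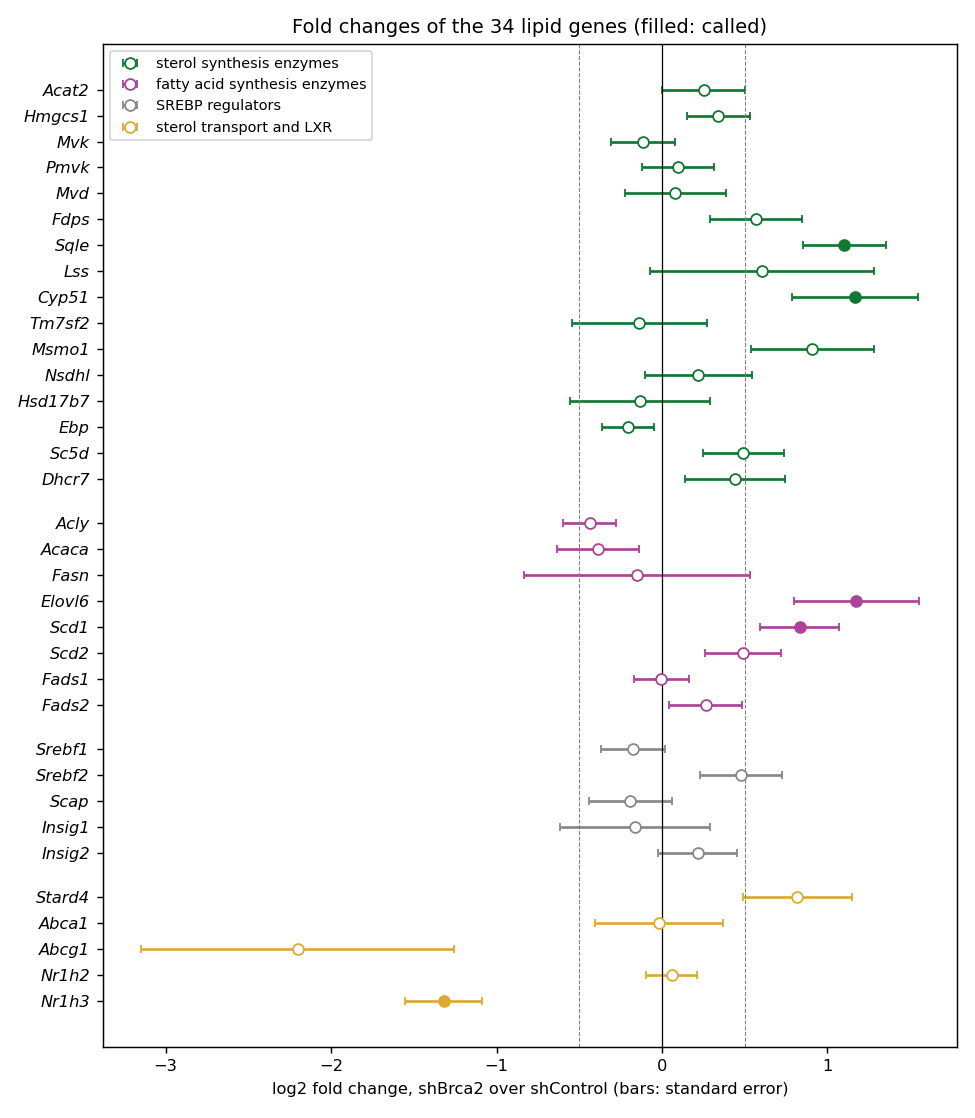
Log2 fold change of shBrca2 over shControl (horizontal axis) for each of the 34 genes (vertical axis), ordered by set and by pathway step, with bars for the standard error, dashed lines at 0.5 and -0.5, and filled points for called genes. Filled points stand at 1.10 for Sqle, 1.17 for Cyp51, 1.18 for Elovl6, 0.83 for Scd1 and -1.32 for Nr1h3, and no SREBP regulator is filled.

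Of the 16 sterol synthesis enzymes, 2 rose, none fell by the DESeq2 test, and 14 were not called. Over all genes 3.77% were called higher and 5.27% lower. Log2 fold changes were positive for 12 and negative for 4, with a median of 0.30. An unadjusted p under 0.05, whose share over all genes was not computed, was found for 5 of the 16. Sqle and Cyp51 both act after squalene. Sqle (GRCm38 chromosome 15, 59315092 to 59331193) encodes the enzyme that oxidizes squalene at a rate-limiting step of sterol synthesis. Per library it had normalized counts of 40.1, 39.2 and 43.8 in the shControl libraries (replicates 1, 2 and 4) and 94.7, 95.6, 65.6 and 92.5 in the shBrca2 libraries (1 to 4), the order used for all genes here. Every shBrca2 library lay above every shControl library, and replicate 3 was the lowest of the 4. The means were 41.0 ± 2.41 (SD, n = 3) and 87.1 ± 14.4 (SD, n = 4), a 2.15-fold difference (log2 fold change 1.10, SE 0.25, adjusted p = 0.000658). Sqle was called in all 12 other fits that were run. Of its 7 annotated transcript ends, 4 lie in bases shared with Washc5 on the opposite strand.

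Cyp51 (GRCm38 chromosome 5, 4080674 to 4104697) encodes the cytochrome P450 that removes a methyl group from lanosterol. Normalized counts were 16.2, 21.5 and 10.7 in shControl and 40.4, 43.1, 25.9 and 30.5 in shBrca2. The groups did not overlap, although the raw counts behind these values were only 11 to 74 per library. Cyp51 rose by 1.17 on the log2 scale (SE 0.38, adjusted p = 0.0358), and its adjusted p ran from 0.0265 to 0.298 over the 12 other fits. It was called in 7 of them, and the call was lost without shControl replicate 1 (adjusted p = 0.181) or 4 (0.298) and without shBrca2 replicate 1 (0.222) or 2 (0.203), and with the replicate number as a block (0.247).

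Msmo1, the methyl sterol oxidase downstream of Cyp51, had 32.5, 31.6 and 36.0 normalized counts in shControl and 68.8, 89.2, 24.2 and 63.0 in shBrca2. Replicates 1, 2 and 4 of shBrca2 lay above all shControl libraries and replicate 3 below them, so the groups overlapped. The log2 fold change was 0.91 (SE 0.37, adjusted p = 0.135), which did not pass the test. Without shBrca2 replicate 3 it was 1.15 with an adjusted p of 0.00549 and would be called, within a range of 0.00549 to 0.454 over the other fits.

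Fdps, the farnesyl pyrophosphate synthase at the branch point toward sterols and protein prenylation, had 145, 206 and 112 normalized counts in shControl and 252, 240.1, 139.9 and 275 in shBrca2. The groups overlapped and the gene was not called (log2 fold change 0.57, SE 0.28, adjusted p = 0.252), although it was called without shControl replicate 2 and without shBrca2 replicate 3. Sc5d, a desaturase near the end of the pathway, gave 42.7, 48.1 and 45.7 in shControl and 65.4, 65.9, 57.0 and 65.0 in shBrca2. These groups were apart, yet the change of 0.49 on the log2 scale (SE 0.24, adjusted p = 0.264) passed neither the p nor the fold minimum. Fdps and Sc5d are described in detail because of their values.

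None of the other steps was called, which does not show that they were unchanged. Hmgcs1, which makes HMG-CoA, stood at a log2 fold change of 0.34 (adjusted p = 0.348), and Acat2, which feeds it acetoacetyl-CoA, at 0.25 (0.695). The mevalonate-phosphorylating kinases Mvk and Pmvk stood at -0.11 and 0.10, and the decarboxylase Mvd at 0.08. Lanosterol synthase (Lss) stood at 0.60, on only 2 to 11 raw counts per library. The later enzymes Dhcr7, Nsdhl, Hsd17b7, Tm7sf2 and Ebp stood at 0.44, 0.22, -0.13, -0.14 and -0.21, with adjusted p up to 0.923 for Hsd17b7. Among the 16 enzymes the most negative value was that of Ebp (adjusted p = 0.565).

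As a description of the whole arm, log2(normalized count + 1) of each gene was centered on its own mean and the 16 enzymes were averaged. This score was -0.18, -0.21 and -0.19 in shControl and 0.08, 0.28, -0.02 and 0.23 in shBrca2. The shControl libraries lay close together and below all shBrca2 libraries, of which replicate 3 was again the lowest. In each shBrca2 library, 7 to 9 of the 16 enzymes stood above all shControl libraries and 1 to 4 below them, where 25.1% to 29.2% of all genes stood above and 27.0% to 28.9% below.

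**Figure D2:**
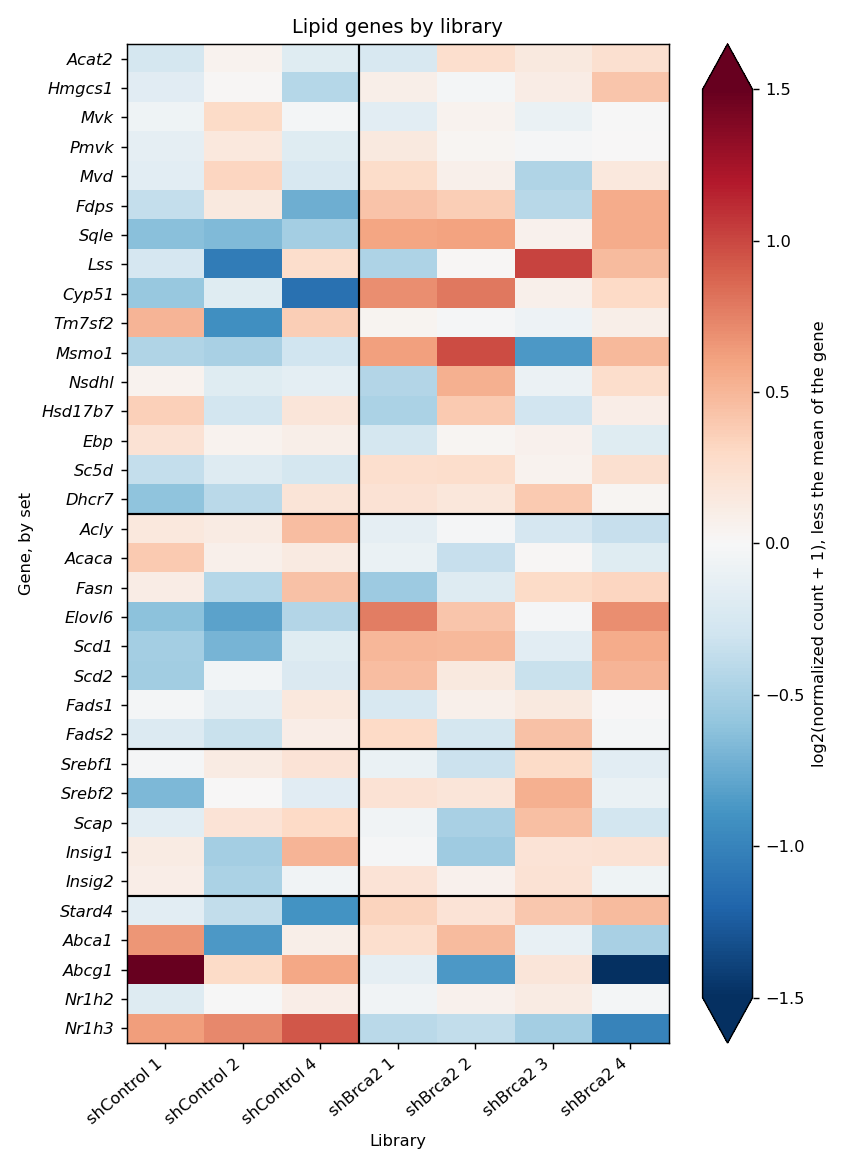
Levels of the 34 genes (rows, by set) in the 7 libraries (columns), as log2(normalized count + 1) less the mean of the gene, with blue for lower and red for higher and colors saturating at 1.5. Sqle and Elovl6 are blue in all 3 shControl columns, Nr1h3 is red there and blue in all 4 shBrca2 columns, and Msmo1 in shBrca2 replicate 3 departs from the other shBrca2 columns.

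The 5′ flanks of the genes were searched for the letters that SREBPs and their partners are known to bind. RefSeq windows of GRCm38.p6, 250 bases before to 50 after an annotated start, were found for 27 of the 34 genes (all but Sqle, Scd1, Scd2, Fdps, Fads1, Stard4 and Abcg1). TCACNCCAC (the core of a sterol regulatory element), TCACGTGA (an E-box form), CCAAT (bound by NF-Y) and GGGCGG (a GC box, bound by Sp factors) were sought on both strands, and a gene was counted when any of its windows held the letters. The element core was present in Hmgcs1 alone among the 27, against 1.44% of all 27025 genes with a window, and TCACGTGA was in none of them, against 1.12% of all genes. CCAAT was present in 13 of the 14 sterol enzymes with a window (92.9%), against 41.1% of all genes, and GGGCGG in 13 of 14, against 38.2%. Among the fatty acid enzymes each of these 2 motifs was present in 2 of 5. The regulators held CCAAT in 4 of 5 genes and GGGCGG in 5 of 5, and of the 3 genes of the transport and LXR set with a window none held CCAAT and 1 held GGGCGG. A match describes letters and not a bound site, and no match says only that these letters are not in the window. These shares are a description, with no test.

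The 250 bases upstream of the start are shown for Hmgcs1, the gene with the element core, and for the called genes with a window. They are chr13:119690101-119690350 (plus strand), chr5:4104698-4104947 (minus), chr3:129532136-129532385 (plus) and chr2:91195117-91195366 (minus, 1 of 2 annotated starts), written 5′ to 3′ on the strand of the gene. Capitals mark the searched motifs in either orientation.
Hmgcs1: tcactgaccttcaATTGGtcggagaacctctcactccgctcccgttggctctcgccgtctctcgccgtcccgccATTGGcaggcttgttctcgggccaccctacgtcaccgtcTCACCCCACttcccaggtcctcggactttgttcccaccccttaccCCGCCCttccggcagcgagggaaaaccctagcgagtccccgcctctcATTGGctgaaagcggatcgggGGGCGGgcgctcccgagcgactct
Cyp51: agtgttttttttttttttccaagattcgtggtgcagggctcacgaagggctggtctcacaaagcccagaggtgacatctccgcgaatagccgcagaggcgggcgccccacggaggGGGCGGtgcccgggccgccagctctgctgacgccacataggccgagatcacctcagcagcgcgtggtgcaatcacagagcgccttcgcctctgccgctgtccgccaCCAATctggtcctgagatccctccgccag
Elovl6: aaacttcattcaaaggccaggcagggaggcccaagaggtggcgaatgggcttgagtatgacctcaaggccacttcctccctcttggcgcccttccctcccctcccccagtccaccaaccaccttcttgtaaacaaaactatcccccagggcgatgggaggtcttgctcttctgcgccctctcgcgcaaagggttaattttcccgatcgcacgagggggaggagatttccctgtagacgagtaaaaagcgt
Nr1h3: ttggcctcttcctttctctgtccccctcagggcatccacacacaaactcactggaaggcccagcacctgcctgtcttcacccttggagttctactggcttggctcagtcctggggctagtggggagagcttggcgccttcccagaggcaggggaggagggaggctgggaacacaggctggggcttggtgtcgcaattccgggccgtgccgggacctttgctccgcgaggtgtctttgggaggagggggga
In Hmgcs1 the element core lies 137 to 129 bases before the start, between CCAAT boxes on the opposite strand. Cyp51 has 1 GC box at 135 to 130 bases and 1 CCAAT box at 29 to 25 bases before its start. No matches overlapped in either sequence. Elovl6 and Nr1h3, which moved in opposite directions, had none of the 4 motifs in these windows.

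In the fatty acid arm, 2 of the 8 enzymes rose, none fell by the DESeq2 test, and 6 were not called. For all genes the called shares were 3.77% higher and 5.27% lower. The enzymes that rose lengthen and desaturate fatty acids, but the desaturases Scd2, Fads1 and Fads2 were not called. The 3 enzymes that make the chain from citrate (Acly, Acaca and Fasn) had negative log2 fold changes and were not called. That of Fasn ranged from -0.36 to 0.11 over the other fits. Signs were evenly split, 4 positive and 4 negative, with a median of 0.13. Groups did not overlap for 2 enzymes that were higher in shBrca2 and 2 that were lower, beside 7.78% and 9.29% of all genes. Of the 8, 4 had an unadjusted p under 0.05, for which the share over all genes was not computed.

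Elovl6 (GRCm38 chromosome 3, 129532386 to 129638495) encodes the elongase that extends palmitate to stearate. It had 14.5, 12.7 and 16.5 normalized counts in shControl and 39.6, 30.9, 22.5 and 37.6 in shBrca2. All shBrca2 libraries lay above all shControl libraries, on raw counts of 10 to 53. Elovl6 rose 2.26-fold (log2 fold change 1.18, SE 0.38, adjusted p = 0.0288). Over the other fits the adjusted p ran from 0.0209 to 0.243, and Elovl6 was called in 6 of 12. Leaving out shControl replicate 1 (0.181), 2 (0.118) or 4 (0.103), or shBrca2 replicate 1 (0.230) or 4 (0.170), ended it, as did the replicate number as a block (0.243).

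Scd1 (GRCm38 chromosome 19, 44394450 to 44407709) encodes the desaturase that turns stearate into oleate. Normalized counts were 85.4, 74.6 and 107 in shControl and 172, 170.2, 109 and 179.9 in shBrca2. The groups were apart, but shBrca2 replicate 3 stood just above shControl replicate 4. Scd1 rose by 0.83 on the log2 scale (SE 0.24, adjusted p = 0.0127), and the call held in 10 of 12 other fits, whose adjusted p ran from 0.00153 to 0.114. It was lost without shControl replicate 1 (0.114) and without shBrca2 replicate 1 (0.102).

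Its neighbor and paralog Scd2 had 316, 442 and 392 normalized counts in shControl and 629.9, 503, 363 and 648 in shBrca2. The groups overlapped and Scd2 was not called (log2 fold change 0.49, SE 0.23, adjusted p = 0.227), although without shBrca2 replicate 3 it was, at 0.63 (adjusted p = 0.0336, with 0.0336 to 0.614 over all other fits). The 2 desaturases are similar in sequence, and how reads shared between them were counted is not given in the sources used here.

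Acly, ATP citrate lyase, which makes cytosolic acetyl-CoA for both arms, had 855, 837 and 1054 normalized counts in shControl and 700.5, 758, 642 and 602 in shBrca2. Every shBrca2 library lay below every shControl library. The log2 fold change of -0.44 (SE 0.16) had an adjusted p of 0.0759, which passed the p threshold but not the fold minimum, so Acly was not called. Without shBrca2 replicate 2 it just passed both, at -0.50, in a range of adjusted p of 0.0720 to 0.578 over the other fits. Acaca, acetyl-CoA carboxylase, the committed step of the arm, gave 74.3, 59.5 and 62.3 in shControl and 52.5, 44.3, 57.0 and 49.8 in shBrca2. These groups were apart in the same direction, and the change was not called (-0.38, SE 0.25, adjusted p = 0.449). Acly and Acaca are described in detail because of their values.

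The other 3 enzymes were not called. Fatty acid synthase (Fasn) had only 3 to 8 raw counts per library and a log2 fold change of -0.15 (SE 0.68), so a change of moderate size was not detectable at this depth. The polyunsaturated fatty acid desaturases Fads1 and Fads2 stood at -0.0033 (SE 0.17) and 0.26 (SE 0.22). The score over the 8 enzymes was -0.15, -0.28 and 0.06 in shControl and 0.13, 0.04, 0.02 and 0.19 in shBrca2, and these ranges overlapped.

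**Figure D3:**
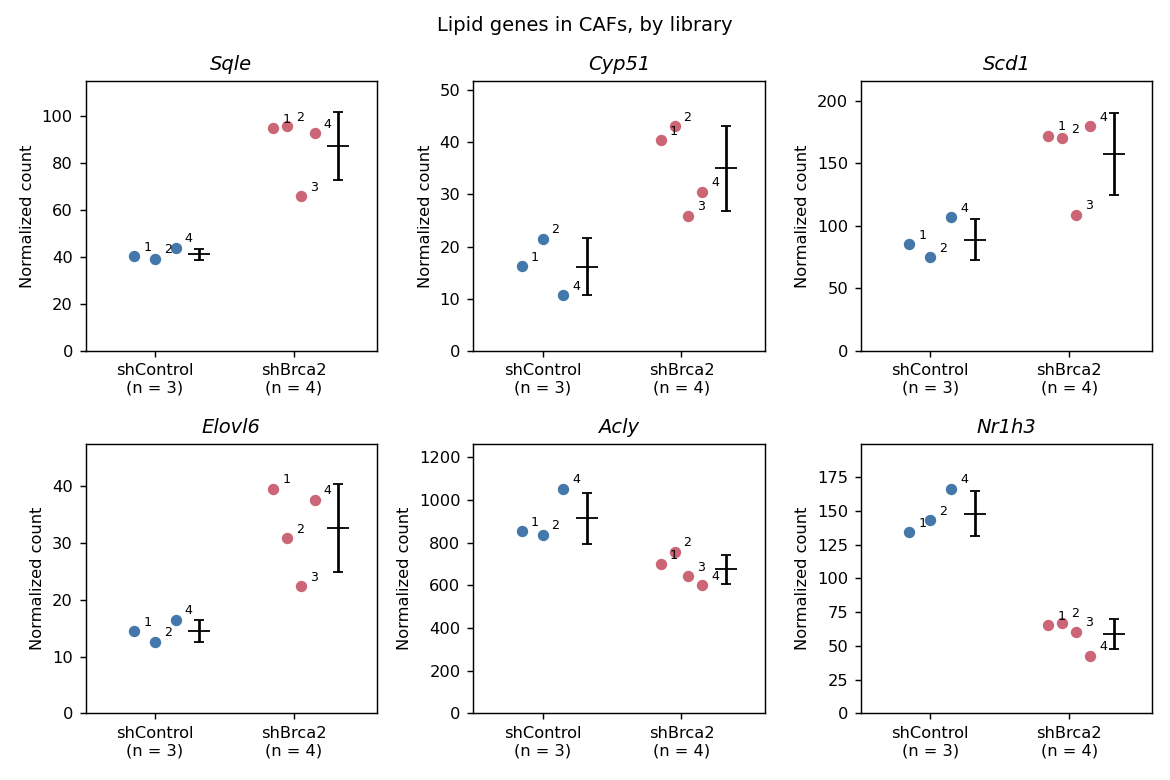
Normalized counts (vertical axes, starting at 0) of the called genes and of Acly in each library, with points numbered by replicate and a bar for the mean ± SD of 3 shControl and 4 shBrca2 libraries. Sqle, Cyp51, Scd1 and Elovl6 are higher in all shBrca2 libraries, with replicate 3 the lowest of the 4 in each, and Acly and Nr1h3 are lower in all of them.

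Replicate 3 was the lowest shBrca2 library for 10 of the 16 enzymes of both arms with positive changes (62.5%, against 37.5% of all 6495 genes with positive changes), namely Sqle, Cyp51, Msmo1, Fdps, Sc5d, Mvd, Pmvk, Elovl6, Scd1 and Scd2. It was also the library with the fewest counts, and the part of its depth in these values was not tested.

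None of the 5 SREBP regulators was called by DESeq2 or edgeR or in any other fit, and none had an unadjusted p under 0.05. Srebf1, which encodes the SREBP that favors fatty acid genes, had 242, 266 and 281 normalized counts in shControl and 228, 195, 299 and 219 in shBrca2. Its log2 fold change was -0.17 (SE 0.19, adjusted p = 0.733) and its groups overlapped. Reads from the 3′ end do not separate the Srebf1 isoforms that differ in their first exon. Srebf2, which encodes the SREBP that favors sterol genes, had 60.6, 97.4 and 86.6 in shControl and 113, 111, 142 and 90.5 in shBrca2. The shBrca2 libraries were mostly higher, and the change of 0.48 (SE 0.25, adjusted p = 0.295) was not called.

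The escort protein gene Scap had 164, 211 and 225 normalized counts in shControl and 176, 131, 250.4 and 150.4 in shBrca2, a log2 fold change of -0.19 (SE 0.25). Insig1, the sterol-dependent anchor and itself a known SREBP target, had 16.2, 10.1 and 21.4 in shControl and 14.6, 9.91, 17.3 and 17.3 in shBrca2. The groups of Insig1 overlapped throughout, and its log2 fold change of -0.16 (SE 0.45, adjusted p = 0.917) turned to 0.11 without shControl replicate 4 and to 0.016 without shBrca2 replicate 2. Insig2 had 77.7, 51.9 and 70.0 in shControl and 83.5, 75.8, 84.6 and 69.1 in shBrca2, a log2 fold change of 0.22 (SE 0.24).

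Among the 5 genes of sterol transport and LXR, 1 fell, none rose by the DESeq2 test, and 4 were not called. Of all genes, 5.27% were called lower and 3.77% higher. Nr1h3 (GRCm38 chromosome 2, 91184061 to 91202829) had 134, 143 and 166 normalized counts in shControl and 65.4, 67.0, 60.4 and 42.7 in shBrca2. The highest shBrca2 library lay far below the lowest shControl library. The means were 148 ± 16.7 (SD, n = 3) and 58.9 ± 11.2 (SD, n = 4), and the log2 fold change was -1.32 (SE 0.23, adjusted p = 1.96e-06). The call held in all 12 other fits. LXRα is known to be abundant in macrophages, liver and fat. Of the 9 macrophage and other immune markers, 3 were called higher, namely Csf1r (226 to 276 normalized counts in shBrca2 against 86.6 to 149 in shControl), C1qa and Cd14. Jchain was called lower. Cd68 (60.2 to 93.3 against 87.6 to 120), C1qb, Lyz2, S100a8 and S100a9 were not called. Among adipocyte markers, 2 of 10 (Fabp4 and Car3) were in the table and neither was called, at a sum of 94.9 to 230 normalized counts in shControl and 151 to 198 in shBrca2. The part of these cells in the level of Nr1h3 was not tested.

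Nr1h2, which encodes the widely expressed LXRβ, had 318, 363 and 389 normalized counts in shControl and 352, 382, 396 and 358 in shBrca2. Its groups overlapped (log2 fold change 0.06, SE 0.15, adjusted p = 0.912), and without shControl replicate 1 the sign was negative at -0.021.

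Stard4, a carrier that moves cholesterol between membranes and a known SREBP target, had 26.5, 22.8 and 15.6 normalized counts in shControl and 37.9, 34.4, 39.7 and 41.7 in shBrca2. The shBrca2 libraries all lay above the shControl libraries, but the log2 fold change of 0.82 (SE 0.33) had an adjusted p of 0.123 and was not called. It was called by edgeR's quasi-likelihood test (0.0857) and with a filter on low counts (0.0990), in a range of 0.0857 to 0.613 over the other fits.

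The exporters Abca1 and Abcg1, both known LXR targets, differed in their values. Abca1 had 59.8, 20.2 and 39.9 normalized counts in shControl and 44.7, 52.5, 34.5 and 26.4 in shBrca2, wide and overlapping ranges with a log2 fold change of -0.02 (SE 0.39). Abcg1 had raw counts of 16, 3 and 5 in shControl and 3, 2, 2 and 0 in shBrca2. Its mean normalized count was 7.44 ± 5.42 (SD, n = 3) against 1.80 ± 1.53 (SD, n = 4), and its groups were separated by a narrow margin. Abcg1 was not called (DESeq2 adjusted p = 0.150). Its mean over all libraries, 4.22, was under the minimum of 5, so it could not be called at any p. The count of 0 in shBrca2 replicate 4 allows up to 3.05 normalized counts, as 3 counts in that library.

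A few other known LXR targets outside the 34 genes were picked after their values were seen and are given as a description only. They are not a full list of such targets. Among the 34 genes, the known LXR targets Abca1 and Srebf1 were not called, and Scd1 rose (log2 fold change 0.83). Abcg1 above had too few counts to be called. LXR activity was not tested. Mylip, a ubiquitin ligase of sterol uptake control, had 140.1, 118 and 90.5 normalized counts in shControl and 31.8, 36.1, 46.6 and 40.7 in shBrca2 and fell (-1.61, SE 0.26, adjusted p = 1.98e-07). Apoe, an apolipoprotein that takes up exported sterol, fell by the test as well (-0.93, SE 0.31, adjusted p = 0.0421), but its shControl values of 9085, 2963 and 8491 bracketed the 3359.6, 3403, 4171 and 3482 of shBrca2. Pltp, a phospholipid transfer protein, fell (-0.90, adjusted p = 0.0376) with groups that overlapped. Lpcat3, a phospholipid remodeling enzyme, stood at 0.07 (adjusted p = 0.917). The Apoe and Pltp calls each held in 7 of 12 other fits, Mylip in 12 of 12.

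Ratios of related genes within a library need no size factor and were compared for 6 pairs with an exact permutation test (two-sided, 35 divisions of the libraries), whose smallest p is 0.0571. None could therefore pass 0.05, and each adjusted p is over the 6 pairs. The ratio of Srebf1 to Srebf2 counts was 3.94, 2.71 and 3.22 in shControl and 2.02, 1.75, 2.10 and 2.4 in shBrca2. Every shBrca2 library was below every shControl library, with a log2 difference of -0.66 between means (exact permutation p = 0.0571, adjusted 0.171). The ratio of Nr1h3 to Nr1h2 was 0.424, 0.396 and 0.429 in shControl and 0.188, 0.177, 0.157 and 0.122 in shBrca2. It too was separated, with a log2 difference of -1.39 and the same exact p of 0.0571 (adjusted 0.171).

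The other 4 ratios overlapped or touched between the groups. Scd1 to Scd2 differed by 0.35 on the log2 scale (exact permutation p = 0.114, adjusted 0.171), Abca1 to Abcg1 by 1.73 (0.114, adjusted 0.171), Fads1 to Fads2 by -0.26 (0.343, adjusted 0.400) and Insig1 to Insig2 by -0.33 (0.400, adjusted 0.400). The ratio of Scd1 to Scd2 ran from 0.171 to 0.275 in shControl and from 0.274 to 0.339 in shBrca2.

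**Figure D4:**
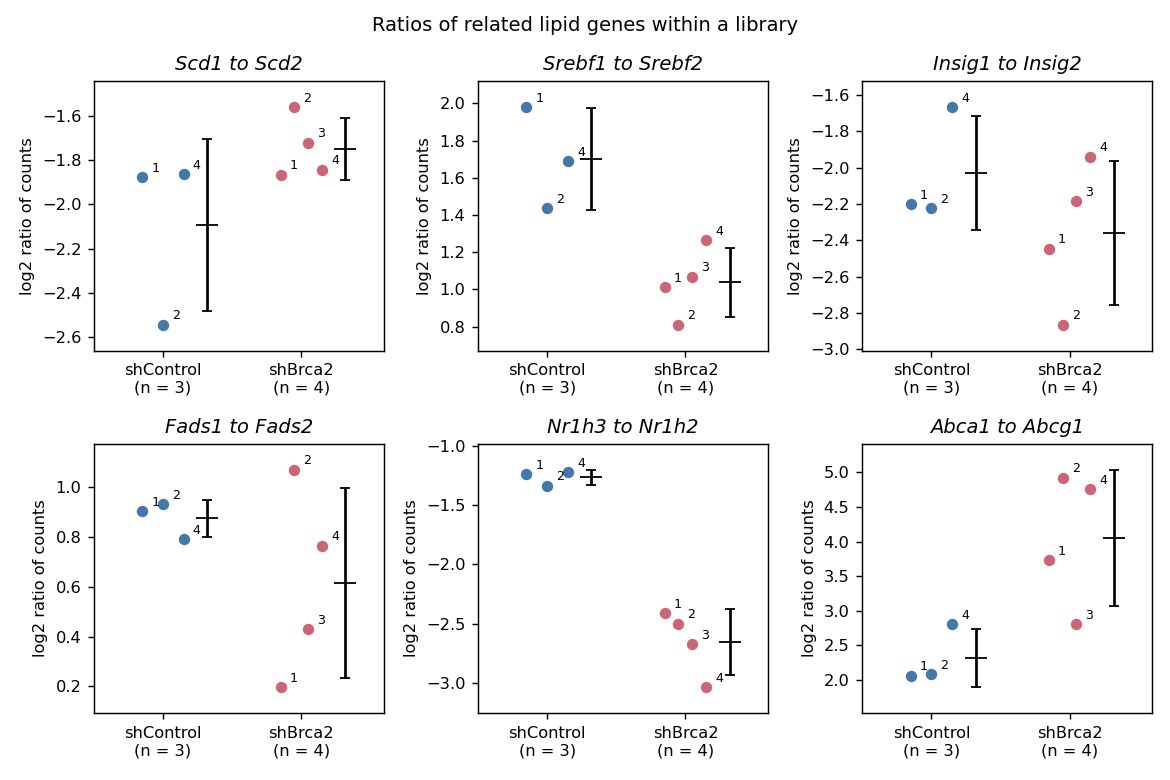
Log2 ratio of the counts of 2 related genes in each library (vertical axes, with 1 added to each count), with points numbered by replicate and bars for the mean ± SD of 3 shControl and 4 shBrca2 libraries. The groups are apart for Srebf1 to Srebf2 and for Nr1h3 to Nr1h2, where all shBrca2 points are lower, and share part of their range or an end of it in the other panels.

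Beyond the 34 genes, 125 of 138 further genes of lipid handling were in the table. Of these, 8 rose and 9 fell, beside the 3.77% and 5.27% of all genes, and their median log2 fold change was -0.07. The 19 genes of sterol sensing and the isoprenoid branch reported here held 0 calls by DESeq2 or edgeR. An unadjusted p under 0.05 was found for 2 of them, again without a share over all genes.

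In the list of sterol uptake, storage and efflux, 2 of 28 genes rose and 5 fell, beside 3.77% and 5.27% of all genes. The HDL receptor gene Scarb1 (0.95, adjusted p = 0.00510) and the oxysterol-making Ch25h (0.71, adjusted p = 0.0436) rose. Scarb1 was called in 10 of 12 other fits, and Ch25h, whose groups overlapped, in 7 of 12. Both calls were lost with the replicate number as a block and without shControl replicate 1. Besides Mylip, Apoe and Pltp, the endocytic receptor Lrp1 (-0.76, adjusted p = 0.00232) and Cyp27a1, a sterol hydroxylase (-1.35, adjusted p = 0.0112), fell, and were called in 12 and 11 of 12 other fits. The groups of Lrp1 were apart, and those of Cyp27a1 overlapped. In the list of fatty acid activation, 3 of 26 genes rose and 0 fell. For triglyceride and lipid droplets 3 of 24 rose and 2 fell, and for oxidation 0 of 28 rose and 2 fell. These counts too stand beside 3.77% and 5.27% of all genes.

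**Figure D5:**
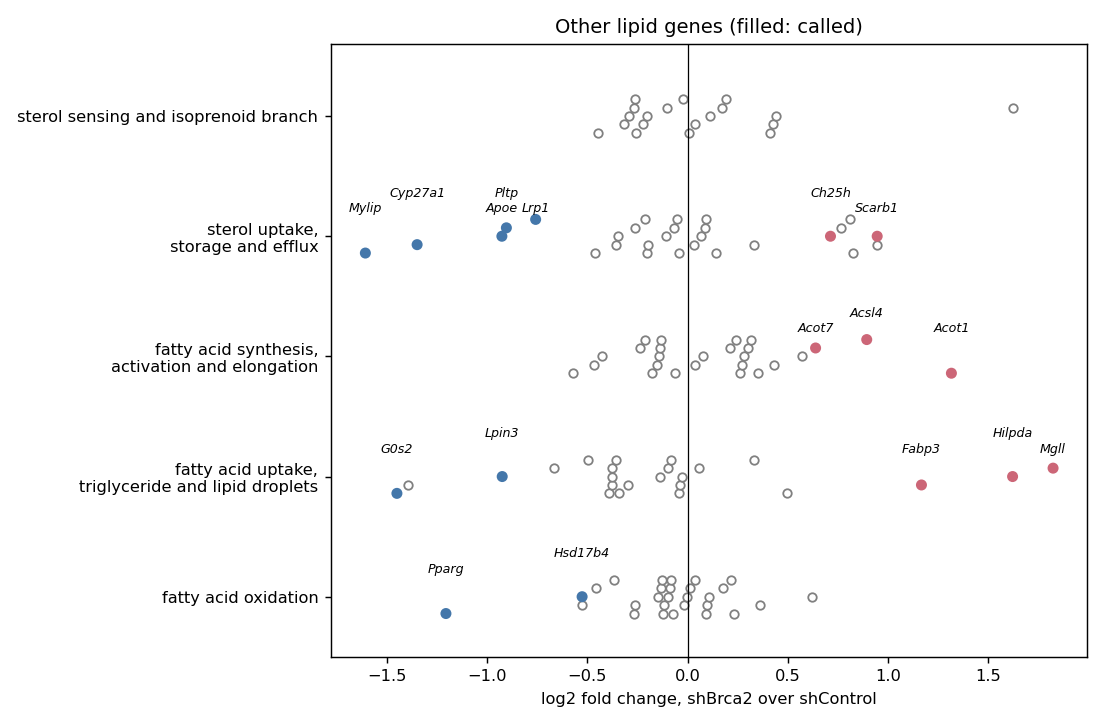
Log2 fold change of shBrca2 over shControl (horizontal axis) for 125 other lipid genes in 5 lists (vertical axis, with points spread for legibility), with filled and named points for called genes, red for higher and blue for lower. No gene of the sterol sensing list is filled, and the uptake and efflux list has 5 called genes to the left of 0 and 2 to the right.

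Several of the 34 genes share exon bases with another gene in GENCODE vM39, and whether strand was used in counting is not given in the sources used here, so reads of such pairs cannot be told apart. This holds for 18 of the 34 genes, and for 6 of them an annotated transcript end lies in the shared bases. Those 6 are Sqle (4 of 7 ends, with Washc5 on the opposite strand), Cyp51 (2 of 6, with Akap9 among others), Hmgcs1 (2 of 3), Scap (11 of 22), Srebf1 (4 of 16) and Fads1 (1 of 10). Elovl6, Scd1 and Nr1h3 had no transcript end in shared bases.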

How the data were processed

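RNA of sorted CAFs was measured in 7 libraries, grouped by the recorded Brca2 status of the KPC cells. The deposited values are raw counts per gene symbol, made by the authors and not normalized. The submitters' processing notes name bcl2fastq, cutadapt, STAR 2.4.2a, HTSeq, DESeq2 and the build mm10. The annotation, the strand setting and any collapsing of molecular identifiers are not given in the sources used here, so PCR copies may be counted and floors cover counting error only. Between libraries the mean chi-square per gene was 3.01 or more, so no library was taken as a duplicate. Every listed gene has a count of 6 or more in some library.

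DESeq2 1.42.0 (R 4.3.3) was run on all genes with a likelihood ratio test of the group and no covariate, after the study's methods. Calls needed a Benjamini-Hochberg adjusted p under 0.1, an absolute log2 fold change over 0.5 and a mean normalized count over 5. Of 12771 genes, 3 received no p. Fold changes are not shrunken, and errors are SE for fold changes and SD for means. Ratios used log2 of counts plus 1 and scipy 1.17.1. Each library comes from a separate mouse by the study's methods. The 12 other fits were edgeR 4.0.16's quasi-likelihood test, the Wald test, TMM factors, a filter (a count of 10 in 3 libraries, 10852 genes), the replicate number as a block, and each library left out. A threshold of adjusted p under 0.05 with no fold minimum, and a pseudocount of 0.5, were also tried. The scripts were tested on simulated data. Positions and promoters are from RefSeq GRCm38.p6, matched by symbol.

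The genes and lists were chosen with earlier results of these data known. Values in every library are given for called genes, for the 3 genes of each set with the largest change in size among those with a mean over 5, and for Srebf1, Srebf2 and Insig1. Called genes of the other lists are named, up to 8 per list. Further genes were named after their values were seen. Some genes of lipid handling are not reported here.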

Additional observations from a re-analysis of the deposited data

Results flagged for a closer look

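In 3 genes 1 shBrca2 library stood apart from the other 3. The gap between the lowest library and its nearest neighbor, divided by the range of the group, was 0.897 for Sqle, 0.908 for Sc5d and 0.864 for Scd1, above Dixon's 95% critical value for 4 samples. The low library was shBrca2 replicate 3 in each case. In all, 40 genes and ratios were examined in the 4 shBrca2 libraries, and chance alone would exceed this limit in about 1 of 20. Without this library Sqle and Scd1 were still called.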

How the results depend on the processing

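Over all genes the replicate block, which takes the replicate number as a term, lowered the calls from 1154 to 491, and leaving out each library in turn gave 615 to 1305. Same-numbered libraries did not deviate together (correlations of -0.07, -0.10 and -0.09), so the numbers were not taken as pairs. With the replicate block, 1 sterol enzyme (Cyp51 was lost), 1 fatty acid enzyme (Elovl6 was lost), no regulator, 1 transport or LXR gene and 8 other lipid genes were called. The edgeR test and the filter on low counts each called 2 transport and LXR genes, adding Stard4. Leaving out each library in turn, the sterol enzymes called ranged from 1 to 4, the fatty acid enzymes from 0 to 3, the regulators from 0 to 0, the transport and LXR genes from 1 to 1, and the other lipid genes from 9 to 18. Signs were compared for the called genes, the 3 genes of each set with the largest change in size, and Srebf1, Srebf2 and Insig1. Among these the log2 fold change changed sign for Insig1 and Nr1h2. Insig1 turned to 0.11 and 0.016 without shControl replicate 4 and shBrca2 replicate 2, and Nr1h2 to -0.021 without shControl replicate 1. Leaving out each library in turn, Insig1 ranged from -0.38 to 0.11 and Nr1h2 from -0.021 to 0.13. The cause of these changes was not tested. Counted over the genes compared for sign and all settings, 162 log2 fold changes kept their direction and side of the threshold, 13 lost the call and 4 gained it. The 162 include genes that were not called in any fit. Of the called genes, Sqle and Nr1h3 kept the call in 12 of 12 other fits, Scd1 in 10, Cyp51 in 7 and Elovl6 in 6. The Wald test, TMM factors and the stricter threshold called the same numbers of genes in each of the 4 sets. Genes with few counts, Lss, Fasn and Abcg1 above all, were limited by depth.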

Other observations

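In the list of triglycerides and lipid droplets, 3 genes differed by more than any of the synthesis enzymes. Mgll, the lipase that releases fatty acids from monoglycerides, had 41.0, 75.9 and 50.6 normalized counts in shControl and 202, 152, 216 and 213 in shBrca2 (log2 fold change 1.82, SE 0.26, adjusted p = 3.52e-09 by DESeq2). Hilpda, a lipid droplet protein known to be induced by hypoxia, had 139, 191 and 172 and 502, 647, 477 and 424 (1.62, SE 0.21, adjusted p = 5.30e-11). G0s2, like Hilpda an inhibitor of the triglyceride lipase ATGL, fell, from 406, 228 and 206 in shControl to 75.7, 122, 109 and 104 in shBrca2 (-1.45, SE 0.28, adjusted p = 2.09e-05). The groups did not overlap for any of these 3 genes, each was called in all 12 other fits, and 7 of 13 hypoxia genes were called higher beside Hilpda. The part of hypoxia in its level was not tested.

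Of the enzymes that activate fatty acids or hydrolyze their CoA esters, Acsl4 (0.89, adjusted p = 0.00147), Acot1 (1.32, adjusted p = 0.00146) and Acot7 (0.64, adjusted p = 0.0155) rose, with groups apart in each, and were called in 12, 12 and 7 of 12 other fits. Acot1 and the similar Acot2 (0.43, adjusted p = 0.661) may share reads. Fabp3, a fatty acid carrier, rose (1.17, adjusted p = 0.0418), and Lpin3, a phosphatidate phosphatase, fell (-0.92, adjusted p = 0.0398), in 6 and 7 of 12 other fits. Hsd17b4, a peroxisomal oxidation enzyme (-0.53, adjusted p = 0.0621), and Pparg, a fat cell regulator (-1.21, adjusted p = 0.0829), fell, and were called in 5 and 6 of 12 other fits. Plin2, the coat protein of lipid droplets, was higher in every shBrca2 library, 248, 204, 219 and 262 against 159.7, 166 and 171, and its log2 fold change of 0.50 (adjusted p = 0.0651) was just under the fold minimum, which it passed without shBrca2 replicate 2. Acot2 and Plin2 were named after their values were seen.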
